A study of Mus musculus with 6 samples.

Results

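Azurophil granules are the first granules that developing neutrophils make, and their proteins kill and digest microbes. Described here are 10 genes for these proteins and for the proteins that process, restrain or accompany them: Mpo, Elane, Prtn3, Ctsg, Ctsc, Cst7, Serpinb1a, Lyz1, Lyz2 and Gstm1. They were chosen by name, with Ela2 accepted as the alias of Elane, out of 18193 genes with a symbol of their own on the array. The 10 genes had 18 probe sets, a probe set being the group of short probes that reads 1 transcript, and 16 of them were kept by a filter on low values. RNA came from granulocyte/macrophage progenitors (GMPs), marrow cells that give rise to neutrophils and monocytes, of BL6 mice.

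The 3 genotypes were wild type (WT), IRF8 KO, which lacks the transcription factor IRF8, and IRF4/8 DKO, which lacks IRF4 as well. Each genotype had 2 arrays, and no other allele or treatment is named in the labels. WT replicate 1 was a male of 12 weeks and WT replicate 2 a female of 19 weeks. IRF8 KO replicate 1 was a female of 12 weeks and IRF8 KO replicate 2 a male of 22 weeks. IRF4/8 DKO replicate 1 was a male and IRF4/8 DKO replicate 2 a female, both of 16 weeks. The sort gate took Kit+ CD34+ marrow cells with high Fc receptor II/III staining that lacked lineage markers, Sca1 and IL-7R, and 10 ng of total RNA went into each array. The series concerns how loss of IRF4 and of IRF8 combine in blood cancers. The sources used here do not say whether these mice were ill.

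As background, azurophil granules are filled at the promyelocyte stage, which follows the GMP, and transcription of their genes begins in GMPs. Myeloperoxidase, from Mpo, turns hydrogen peroxide and chloride into hypochlorous acid. Neutrophil elastase (Elane), proteinase 3 (Prtn3) and cathepsin G (Ctsg) are serine proteases that are made as inactive forms, and cathepsin C (Ctsc) activates them by removing a dipeptide. Cystatin F (Cst7) inhibits cathepsin C, and the cytosolic serpin encoded by Serpinb1a inhibits all 3 serine proteases. Lysozyme, from Lyz1 and Lyz2, cuts bacterial cell walls and is also made by later granules and by monocytes and macrophages. Gstm1 codes for a cytosolic glutathione transferase and not for a granule protein. PU.1, C/EBP factors, Myb and Runx1 are known activators of promoters of this kind, and IRF8 is known to favour monocytes over neutrophils.

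The stretch just before the transcription start is shown for the peroxidase, the 3 serine proteases and both lysozymes, because they hold both ends of the results, with Mpo and Ctsg closest to WT in IRF8 KO, the lysozymes farthest from it, and Elane and Prtn3 between them. Each sequence is the 250 bases before a RefSeq start on build GRCm38.p6, read 5′ to 3′ in the direction of the gene. Capitals mark matches to short motifs on either strand: PU.1 (GAGGAA), Myb (AACGG or AACTG) and C/EBP (TTNNGNAA). The Mpo window is chr11:87793534-87793783 on the plus strand, Elane chr10:79886062-79886311 plus, Prtn3 chr10:79879417-79879666 plus and Ctsg chr14:56102575-56102824 minus. The lysozyme windows are chr10:117292869-117293118 minus for Lyz1 and chr10:117282273-117282522 minus for Lyz2.
Mpo: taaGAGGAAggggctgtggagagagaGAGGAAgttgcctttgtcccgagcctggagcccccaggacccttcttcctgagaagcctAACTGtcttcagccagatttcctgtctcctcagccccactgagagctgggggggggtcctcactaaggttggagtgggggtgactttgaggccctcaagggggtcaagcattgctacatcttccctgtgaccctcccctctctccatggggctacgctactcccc
Elane: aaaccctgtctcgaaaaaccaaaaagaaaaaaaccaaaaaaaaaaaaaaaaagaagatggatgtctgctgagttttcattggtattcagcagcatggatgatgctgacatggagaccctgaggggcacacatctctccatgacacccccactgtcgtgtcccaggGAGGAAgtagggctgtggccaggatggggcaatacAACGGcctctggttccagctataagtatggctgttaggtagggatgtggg
Prtn3: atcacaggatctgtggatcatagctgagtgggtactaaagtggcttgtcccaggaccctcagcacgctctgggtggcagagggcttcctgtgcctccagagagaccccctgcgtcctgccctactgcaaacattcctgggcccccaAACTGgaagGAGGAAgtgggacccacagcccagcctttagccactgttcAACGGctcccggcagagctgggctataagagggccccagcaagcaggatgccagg
Ctsg: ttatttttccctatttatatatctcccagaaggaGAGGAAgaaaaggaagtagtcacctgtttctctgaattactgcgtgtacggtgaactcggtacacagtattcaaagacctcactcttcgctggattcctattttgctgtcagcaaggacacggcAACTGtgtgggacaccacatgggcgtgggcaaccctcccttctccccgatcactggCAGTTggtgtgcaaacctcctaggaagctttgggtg
Lyz1: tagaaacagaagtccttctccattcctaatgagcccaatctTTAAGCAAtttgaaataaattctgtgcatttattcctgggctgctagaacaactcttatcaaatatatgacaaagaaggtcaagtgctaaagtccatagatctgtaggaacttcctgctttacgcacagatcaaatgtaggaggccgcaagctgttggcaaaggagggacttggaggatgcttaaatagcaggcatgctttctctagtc
Lyz2: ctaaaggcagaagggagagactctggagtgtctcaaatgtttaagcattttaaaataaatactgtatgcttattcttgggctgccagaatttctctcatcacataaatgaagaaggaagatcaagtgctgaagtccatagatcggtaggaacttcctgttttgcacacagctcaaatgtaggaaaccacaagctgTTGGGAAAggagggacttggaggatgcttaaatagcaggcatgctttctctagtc

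The promoter table held 9 of the 10 genes, and Serpinb1a had no entry. The peroxidase and the 3 serine proteases each held the PU.1 letters GAGGAA and the Myb letters, and neither lysozyme held either. Over the 9 genes, GAGGAA was present in 5 (Ctsc, Ctsg, Elane, Mpo and Prtn3), against 23.3% of all 32851 windows of the same length. The Myb letters were present in 5 (Cst7, Ctsg, Elane, Mpo and Prtn3), against 48.6%. In Elane and Prtn3, which are neighbours on chromosome 10, the spacing was alike: GAGGAA began 85 bases before the start and AACGG 50 in Elane, and 95 and 55 in Prtn3. The C/EBP letters were in 3 genes (Cst7, Lyz1 and Lyz2), against 36.8% of windows, and the Runx letters TGTGGT, not capitalised here, in Cst7, Ctsg and Lyz2, against 14.0%. The combined Ets and IRF letters GGAANNGAA, which can overlap GAGGAA and contain the next motif, were in 0 of 9 genes, against 6.99%. The interferon response letters GAANNGAA were in 2 (Ctsc and Gstm1), against 17.2%. The Lyz1 and Lyz2 windows were identical at 205 of 260 aligned positions (78.8%), while the next most alike pair, Mpo and Prtn3, reached 53.5%. These matches describe letters in a window and are not binding sites.

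Intensities are linear array values in arbitrary units, so levels are compared between arrays and not between genes. Over all arrays they ran from 0.69 to 16563.28, and the number of arrays limits the precision. Fold changes are differences of log2(intensity + 10.5) fitted with limma over all kept probe sets, with the standard error (SE) of the fit. Irf8 signal does not check the labels, since the sources used here do not place its probes relative to the deleted part: the brighter Irf8 probe set read 2588 to 3052 in WT, 2602 to 3811 in IRF8 KO and 2611 to 4778 in IRF4/8 DKO. The dimmer one read 507 to 704, 1131 to 1333 and 934 to 1900 in the same order, so both knockouts lay above WT (log2 1.03 and 1.14, limma adjusted p = 0.341 and 0.44). The first Irf4 probe set read 23.5 to 32.1 in WT, 7.66 to 13.8 in IRF8 KO and 54.6 to 66.0 in IRF4/8 DKO, the mice that lack IRF4, and the second read 11.8 to 33.1 on all arrays. The Irf4 probes are not placed either. Of the gate's genes, the brighter Kit probe set stayed between 1680 and 2426 on all arrays and the dimmer between 267 and 416. The kept Il7r probe set stayed between 4.31 and 27.1. Fcgr3, an Fc receptor gene of the gate, did not stay level: it read 1090 and 1259 (WT), 2618 and 6315 (IRF8 KO), and 2516 and 5863 (IRF4/8 DKO), with no overlap with WT (log2 1.79 and 1.70, limma adjusted p = 0.177 and 0.271). The brightest probe set of Fcgr2b, also an Fc receptor gene of the gate, gave log2 0.35 in IRF8 KO and 0.72 in IRF4/8 DKO. Its other kept probe sets gave -0.66 to 0.02 and 0.52 to 0.86 (limma adjusted p from 0.573 to 0.991 over all of them). Cd34 read 1747 and 1401 (WT), 440 and 669 (IRF8 KO), and 590 and 509 (IRF4/8 DKO). In bulk samples, a change in the mix of cells and a change of RNA per cell cannot be told apart.

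None of the 16 kept probe sets passed the adjusted test in any of the 3 comparisons. The 10 genes did not all differ alike. By their leading probe sets, Lyz1, Lyz2 and Gstm1 lay 1.60- to 2.04-fold above WT in IRF8 KO and 1.64- to 1.72-fold above WT in IRF4/8 DKO, with every knockout array above both WT arrays. Elane lay above WT on every knockout array by a smaller margin, and Prtn3 arrays overlapped WT. Mpo and Ctsg lay within 1.13-fold of WT in both knockouts. Serpinb1a and Cst7 lay above WT on both IRF4/8 DKO arrays, and Ctsc was the only one of the 10 genes whose leading probe set lay below WT on both IRF4/8 DKO arrays.

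**Figure D1:**
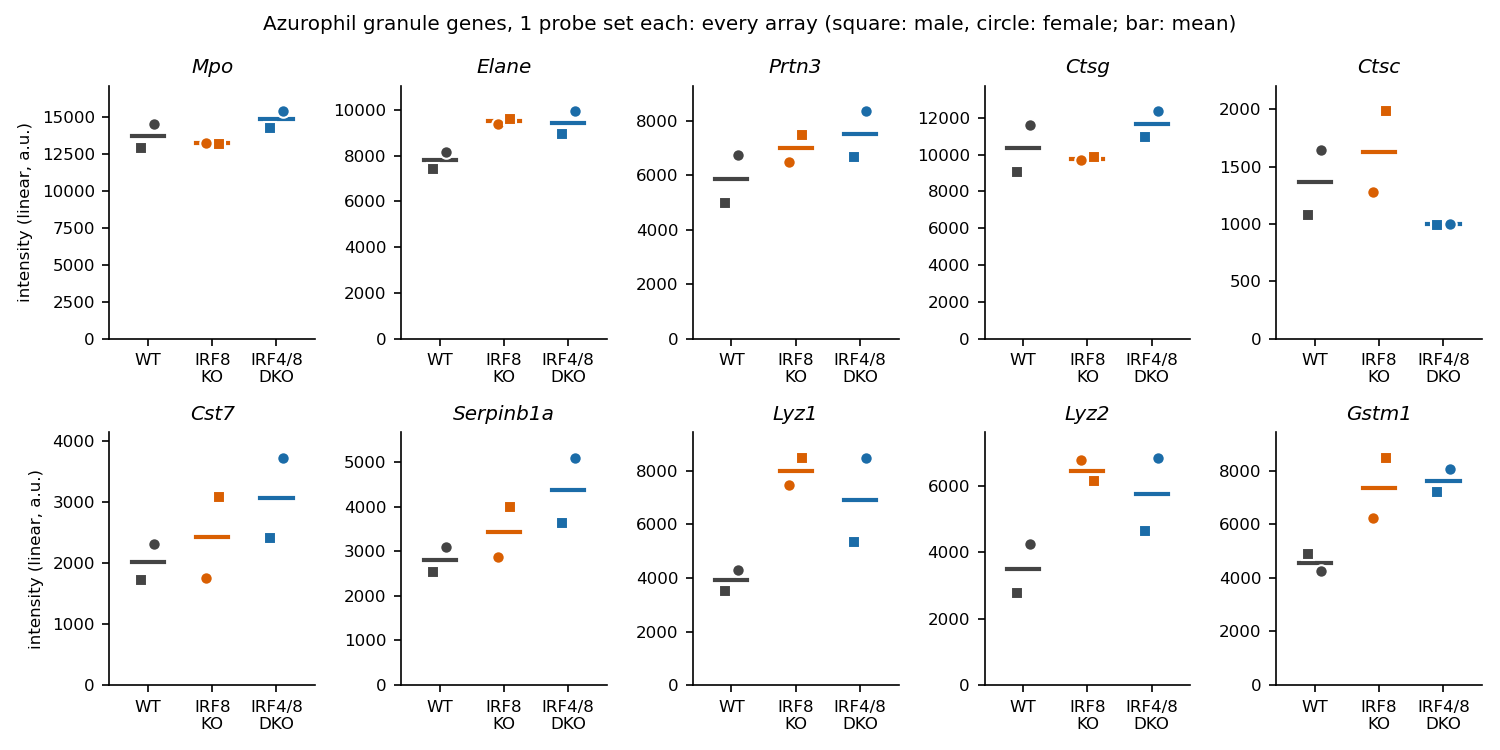
Linear intensity of the 10 genes, 1 probe set each, on the 6 arrays: squares are males, circles females and bars the mean of the 2 arrays of a genotype. Lyz1, Lyz2, Gstm1 and Elane are higher on all 4 knockout arrays than on both WT arrays, Mpo and Ctsg overlap WT, and both IRF4/8 DKO arrays of Ctsc (990.3 and 1002) lie below WT.

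The peroxidase gene Mpo was among the brightest probe sets of every array. It read 12946 and 14581 for WT, 13264 and 13216 for IRF8 KO, and 14312 and 15417 for IRF4/8 DKO. The 2 IRF8 KO arrays lay between the WT arrays, and the IRF4/8 DKO arrays overlapped WT but lay above IRF8 KO. The log2 fold change was -0.05 ± 0.12 SE in IRF8 KO (limma adjusted p = 0.887, 95% interval -0.33 to 0.22), with a sign that turned under quantile normalization and median centring. In IRF4/8 DKO it was 0.11 ± 0.12 SE (limma adjusted p = 0.859, 95% interval -0.17 to 0.39). Between the knockouts it was 0.17 ± 0.12 SE, IRF4/8 DKO being the higher (limma adjusted p = 0.723). All 46 probe sets in the top 0.1% by mean intensity, Mpo among them, had the same median of 0.17 in that comparison. Against WT, their median was -0.15 in IRF8 KO and 0.04 in IRF4/8 DKO. Under quantile normalization the Mpo value between the knockouts was 0.05.

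Signal near the top of the range bears on Mpo first. It ranked from 3 to 13 from the top among 45037 probe sets and reached 78.2% to 96.9% of the highest value of its array. The highest value of an array was 14433.68 to 16563.28. Among the 46 probe sets in the top 0.1% by mean intensity, the interquartile range of the log2 fold change in IRF8 KO was 0.18. It was 0.28 in the next 405 probe sets, which complete the top 1% and where Ctsg, Elane, Gstm1, Lyz1 and Prtn3 lie, and 0.53 in the 1801 below them, which complete the top 5%. The values for IRF4/8 DKO were 0.19, 0.27 and 0.42. Brighter probe sets thus spread less, and whether saturation narrows the Mpo and Ctsg differences was not tested. Ctsg reached 54.6% to 77.6% of its array's highest value, Elane 44.9% to 66.7% and Lyz1 21.2% to 58.8%.

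**Figure D2:**
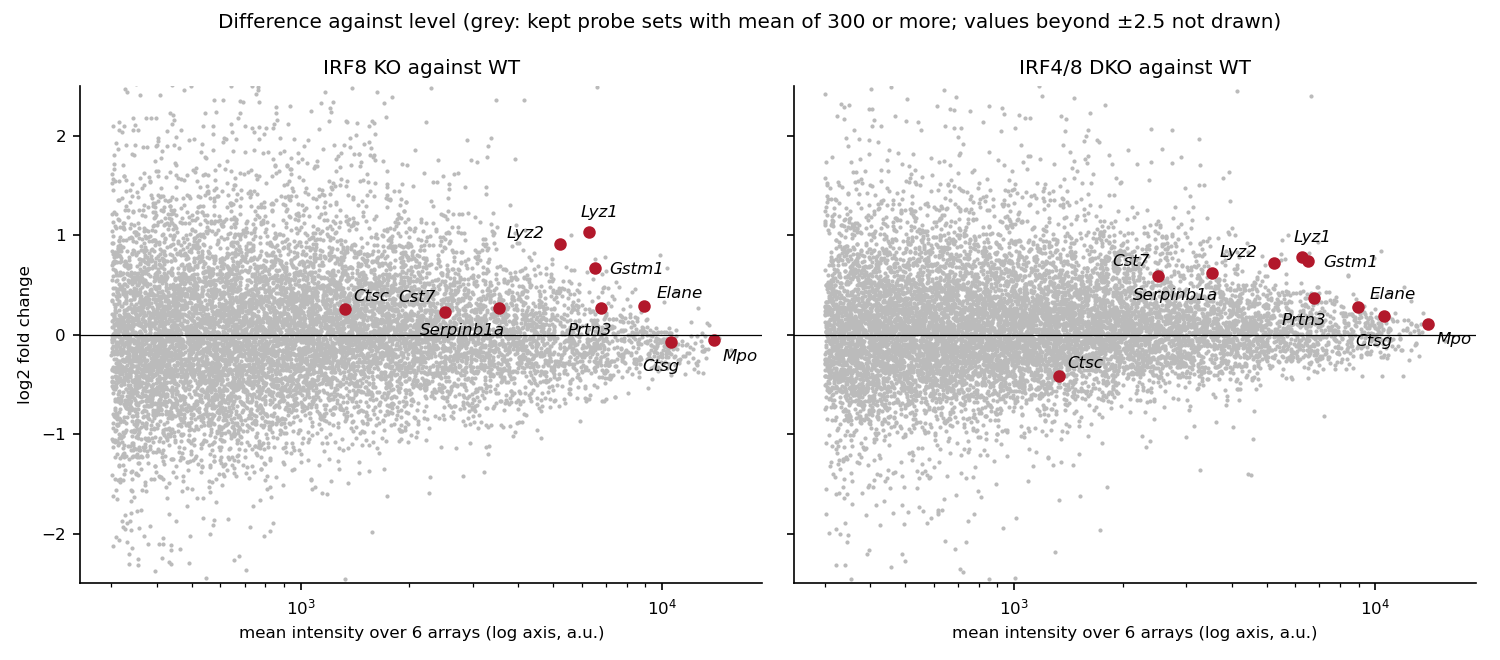
Fitted log2 fold change against mean intensity over 6 arrays (log axis), for IRF8 KO and IRF4/8 DKO against WT; grey points are kept probe sets with a mean of 300 or more and red points the 10 genes. The grey cloud narrows towards the right, Mpo sits at its tip near 0, and Lyz1, Lyz2 and Gstm1 lie near its upper edge in both panels.

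Of the 3 serine proteases, only elastase had all 4 knockout arrays above both WT arrays. Elane read 7434 and 8185 on the WT arrays, 9386 and 9631 on those of IRF8 KO, and 8953 and 9950 on those of IRF4/8 DKO. The 2 knockouts overlapped each other, and the lowest knockout array was IRF4/8 DKO replicate 1. Elane was 1.22-fold above WT in IRF8 KO (log2 fold change 0.29 ± 0.15 SE, limma adjusted p = 0.441) and 1.21-fold in IRF4/8 DKO (0.27 ± 0.15, limma adjusted p = 0.661). The difference between the knockouts was -0.01 ± 0.15 SE (95% interval -0.35 to 0.32, limma adjusted p = 0.99), with a sign that turned under median centring.

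Proteinase 3 varied more within WT than elastase did, by 1.35-fold between the WT arrays against 1.10-fold. Prtn3 read 4983 and 6725 (WT), 6493 and 7461 (IRF8 KO), and 6677 and 8340 (IRF4/8 DKO). WT replicate 1 was the lowest array, and WT replicate 2 lay above 1 array of each knockout, so the groups overlapped. Its fold change was 1.20 in IRF8 KO (log2 0.27 ± 0.21 SE, limma adjusted p = 0.621) and 1.29 in IRF4/8 DKO (log2 0.37 ± 0.21 SE, limma adjusted p = 0.685). Without WT replicate 1 these log2 values were 0.05 and 0.15, and without WT replicate 2 they were 0.48 and 0.58.

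Cathepsin G kept the array pattern of Mpo more closely than that of its fellow proteases (r over 6 arrays of 0.987 with Mpo, 0.734 with Prtn3 and 0.417 with Elane). Ctsg read 9049 and 11628 for WT, 9716 and 9843 for IRF8 KO, and 10975 and 12354 for IRF4/8 DKO. As for Mpo, both IRF8 KO arrays lay between the WT arrays, and the IRF4/8 DKO arrays overlapped WT but lay above both IRF8 KO arrays. The log2 fold change was -0.07 ± 0.16 SE in IRF8 KO (limma adjusted p = 0.888), with a sign that turned under quantile normalization and median centring. It was 0.18 ± 0.16 SE in IRF4/8 DKO (limma adjusted p = 0.821) and 0.25 ± 0.16 SE between the knockouts (limma adjusted p = 0.68). The Ctsg value between the knockouts was 0.09 under quantile normalization, and the 405 probe sets of its intensity band had a median of 0.12. Against WT, that band, which also holds probe sets of Elane, Gstm1, Lyz1 and Prtn3, had medians of -0.09 in IRF8 KO and 0.04 in IRF4/8 DKO. For Ctsg, leaving out WT replicate 1 gave -0.25 in IRF8 KO and 0.0019 in IRF4/8 DKO, and leaving out WT replicate 2 gave 0.11 and 0.36.

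Cathepsin C, the activator of the 3 proteases, was lowest in IRF4/8 DKO by its brightest probe set. That probe set read 1080 and 1644 on the WT arrays, 1280 and 1982 on those of IRF8 KO, and 990.3 and 1002 on those of IRF4/8 DKO. Both IRF4/8 DKO arrays lay below the other 4, while IRF8 KO overlapped WT. The log2 fold change was 0.26 ± 0.36 SE in IRF8 KO (limma adjusted p = 0.804), -0.42 ± 0.36 in IRF4/8 DKO (limma adjusted p = 0.821) and -0.67 ± 0.36 between the knockouts (limma adjusted p = 0.645). The other 2 Ctsc probe sets were dim and did not follow it. The first, with a suffix (_s_at) for probes that related transcripts can share, read 66.7 to 91.8 on all arrays. The second read 29.6 and 51.0 (WT), 28.0 and 184 (IRF8 KO), and 58.8 and 71.0 (IRF4/8 DKO). One array, IRF8 KO replicate 2, stood apart there, and the log2 fold change in IRF8 KO was 0.80 (limma adjusted p = 0.656). For the bright probe set, leaving out WT replicate 1 or 2 gave -0.72 and -0.12 in IRF4/8 DKO and -0.05 and 0.56 in IRF8 KO. Leaving out IRF8 KO replicate 1 or 2 gave -0.98 and -0.36 between the knockouts, and 0.57 and -0.06 in IRF8 KO.

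The inhibitor of cathepsin C showed wide spread within both knockouts. Cst7 read 1720 and 2311 for WT, 1765 and 3086 for IRF8 KO, and 2410 and 3731 for IRF4/8 DKO. The IRF8 KO arrays overlapped WT and both IRF4/8 DKO arrays lay above it. Its fold change was 1.17 in IRF8 KO (log2 0.23 ± 0.36 SE, limma adjusted p = 0.826) and 1.5 in IRF4/8 DKO (log2 0.59 ± 0.36 SE, limma adjusted p = 0.714). Leaving out IRF8 KO replicate 1 or 2 moved the IRF8 KO value to 0.63 and -0.17, and leaving out WT replicate 1 or 2 moved it to 0.01 and 0.44. The IRF4/8 DKO value was 0.90 without IRF4/8 DKO replicate 1, 0.27 without IRF4/8 DKO replicate 2 and 0.37 without WT replicate 1.

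The inhibitor of the serine proteases lay above WT in IRF4/8 DKO by both of its probe sets. The brighter Serpinb1a probe set read 2547 and 3088 on the WT arrays, 2877 and 3995 on those of IRF8 KO, and 3643 and 5102 on those of IRF4/8 DKO. The second, with the shared-probe suffix, read 1509 and 1619, 1693 and 2595, and 2762 and 4092, in the same order of genotypes. On the second probe set the 3 genotypes did not overlap and stood in the order WT, IRF8 KO, IRF4/8 DKO; on the first, IRF8 KO overlapped both. In IRF4/8 DKO against WT the brighter probe set gave 1.54-fold (log2 0.62 ± 0.27 SE, limma adjusted p = 0.552) and the second 2.14-fold (log2 1.1 ± 0.32 SE, limma adjusted p = 0.289). In IRF8 KO they gave 1.21-fold and 1.34-fold (limma adjusted p = 0.708 and 0.609). Between the knockouts they gave log2 0.35 ± 0.27 SE and 0.68 ± 0.32 SE (limma adjusted p = 0.739 and 0.601). For the brighter probe set, leaving out IRF4/8 DKO replicate 2 gave 0.38 in IRF4/8 DKO against WT and 0.10 between the knockouts, and leaving out IRF4/8 DKO replicate 1 gave 0.86 and 0.59. The value between the knockouts was 0.11 and 0.58 without IRF8 KO replicate 1 or 2. Its IRF8 KO value was 0.51 and 0.04 with IRF8 KO replicate 1 or 2 left out, and 0.13 and 0.41 without WT replicate 1 or 2. The related gene Serpinb1b, which could share probes, read 6.95 to 12.7 on its own probe set.

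The lysozyme signals had the largest difference of the 10 genes in IRF8 KO. Lyz2, the lysozyme of myeloid cells, read 2755 and 4248 (WT), 6760 and 6135 (IRF8 KO), and 4637 and 6836 (IRF4/8 DKO). The first Lyz1 probe set read 3517 and 4315 for WT, 7487 and 8494 for IRF8 KO, and 5328 and 8477 for IRF4/8 DKO. All 4 knockout arrays lay above both WT arrays for both genes, and IRF4/8 DKO replicate 1 was the lowest of the 4. Lyz1 was 2.04-fold above WT in IRF8 KO (95% interval 1.39 to 3.0, log2 1.03 ± 0.24 SE, limma adjusted p = 0.139). Lyz2 was 1.88-fold above WT (95% interval 1.23 to 2.87, log2 0.91 ± 0.27 SE, limma adjusted p = 0.21). Lyz1 lay 1.72-fold and Lyz2 1.64-fold above WT in IRF4/8 DKO (limma adjusted p = 0.334 and 0.455). Between the knockouts the arrays overlapped, with log2 -0.25 ± 0.24 SE for Lyz1 and -0.19 ± 0.27 SE for Lyz2 (limma adjusted p = 0.791 and 0.857). Without IRF4/8 DKO replicate 2 the Lyz1 difference in IRF4/8 DKO was 0.45, and without IRF4/8 DKO replicate 1 it was 1.12, and for Lyz2 it was 0.41 without WT replicate 1. Leaving out WT replicate 1 or 2 moved the Lyz2 value in IRF8 KO to 0.60 and 1.22.

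The Lyz1 signal rests on probes that may not be specific. Both bright Lyz1 probe sets carry the suffix _x_at, which marks probes that can bind other sequences, and the second read 3125 to 3982 in WT, 6717 to 7498 in IRF8 KO and 4631 to 7688 in IRF4/8 DKO. The remaining Lyz1 probe set, with no such suffix, read 2.51 to 10.2 on all 6 arrays and was not kept. Over the 6 arrays Lyz1 and Lyz2 correlated at r = 0.955. How much of the Lyz1 signal comes from Lyz2 RNA was not tested.

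Gstm1, the glutathione transferase gene, lay above WT on all 4 knockout arrays by all 3 of its kept probe sets. The brightest by mean log2 value read 4876 and 4251 on the WT arrays, 6231 and 8490 on those of IRF8 KO, and 7197 and 8052 on those of IRF4/8 DKO. The knockouts overlapped each other and neither overlapped WT. Gstm1 was 1.60-fold above WT in IRF8 KO (95% interval 1.16 to 2.20, log2 0.67 ± 0.20 SE, limma adjusted p = 0.215) and 1.67-fold in IRF4/8 DKO (95% interval 1.21 to 2.30, log2 0.74 ± 0.20 SE, limma adjusted p = 0.252). The 2 kept probe sets with the _x_at suffix gave 1.69- and 1.81-fold in IRF8 KO, and 1.77- and 1.96-fold in IRF4/8 DKO (limma adjusted p from 0.176 to 0.283). Between the knockouts, the 3 log2 values were 0.07, 0.07 and 0.11 (limma adjusted p from 0.926 to 0.943), the sign of the brightest turning under quantile normalization. The neighbouring genes Gstm2 and Gstm4, which are related in sequence, read 27.5 to 72.0 and 137 to 787. A 4th Gstm1 probe set read 2.51 to 16.8 on all arrays and was not kept.

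**Figure D3:**
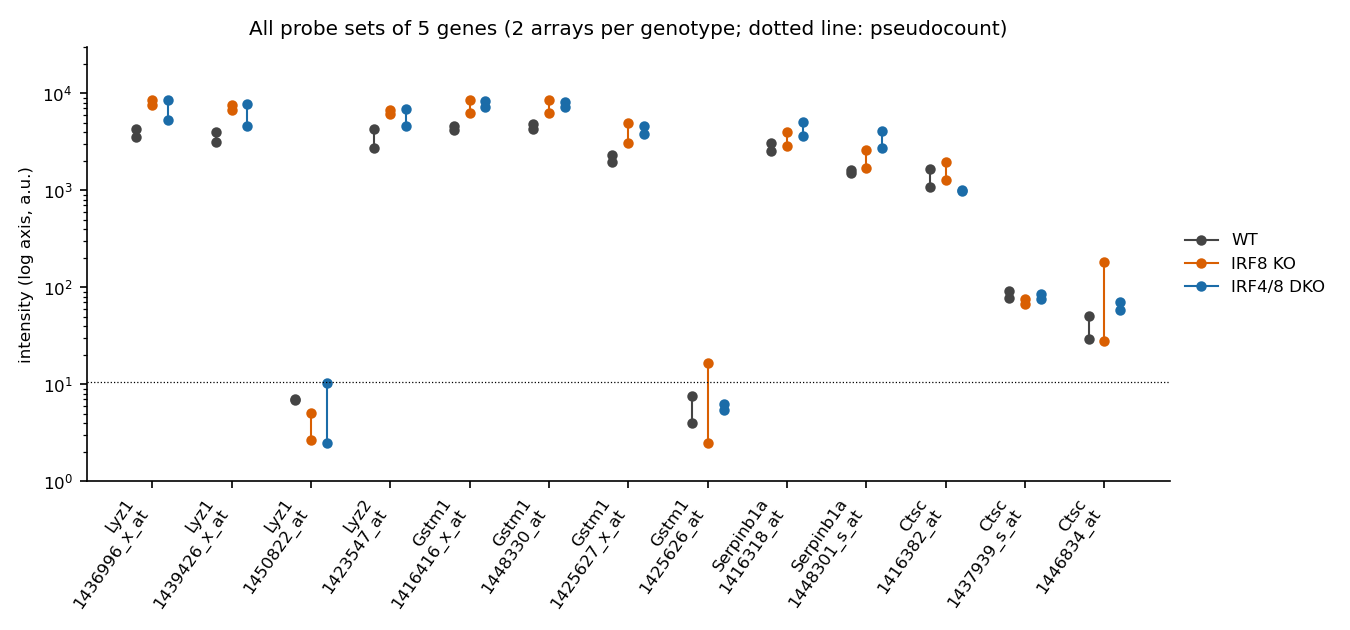
Intensity (log axis) of every probe set of Lyz1, Lyz2, Gstm1, Serpinb1a and Ctsc; points are arrays, joined within a genotype, and the dotted line is the value of 10.5 added before logs. The bright Lyz1, Lyz2 and Gstm1 probe sets have WT at the bottom, while 1 Lyz1 and 1 Gstm1 probe set lie around or below the line on all arrays and were not kept.

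Loss of IRF8 alone was compared first, over all 10 genes. Of the 10 genes, 8 lay above WT, with a median log2 fold change of 0.27 against 0.04 over 13267 genes, of which 53.1% lay above WT. The range was -0.07 (Ctsg) to 1.03 (Lyz1). In the intensity bands of the top 5%, brightest first, the kept probe sets had medians of -0.15, -0.09 and -0.02. None of 16 probe sets passed the limma adjusted threshold of 0.05, at which 0.0302% of all 29783 were called, 0.0101% higher. At an unadjusted limma p under 0.05, 6 of 16 passed, all higher than WT, where 13.5% of all probe sets passed in either direction and 4.93% were higher: both Lyz1, the Lyz2 and all 3 Gstm1 probe sets. Both IRF8 KO arrays lay above both WT arrays for 8 of 16 probe sets (19.8% of all) and below for 1 dim Ctsc probe set (25.9% of all). Probe sets of 1 gene read the same RNA, so these counts are of probe sets and not of genes. The Lyz1 and Lyz2 probe sets may share signal as well, so they may not count as separate genes. The unadjusted count also rests on a fit in which the variance follows intensity. Without that trend, the leading probe sets gave unadjusted limma p of 0.0266 (Lyz1), 0.0491 (Lyz2) and 0.0898 (Gstm1). Without WT replicate 1 the median over the 10 genes was 0.092, without IRF8 KO replicate 2 it was 0.101, and without WT replicate 2 or IRF8 KO replicate 1 it was 0.46 and 0.54.

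Loss of both factors was then compared with WT, against the same 2 WT arrays. Here 9 of 10 genes lay above WT, all but Ctsc, and the median log2 fold change was 0.48, against 0.03 over all genes, of which 52.5% lay above. The range was -0.42 (Ctsc) to 0.79 (Lyz1). None of 16 probe sets passed the limma adjusted threshold (0.299% of all were called, 0.0907% higher). At an unadjusted limma p under 0.05, 7 of 16 passed, all higher (9.05% of all in either direction, 3.44% higher): the same 6 as in IRF8 KO and the second Serpinb1a probe set. Both IRF4/8 DKO arrays lay above both WT arrays for 11 of 16 probe sets (18.3% of all) and below for the bright Ctsc probe set (25.3% of all). Without IRF4/8 DKO replicate 2 the median was 0.24, without WT replicate 1 it was 0.29, and without IRF4/8 DKO replicate 1 it was 0.67.

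Because both comparisons use the same WT arrays, their values cannot be read as 2 independent results. All 4 knockout arrays lay above both WT arrays for 8 of 16 probe sets, against 8.51% of all kept probe sets. They were those of Elane, Lyz2, both Lyz1, all 3 Gstm1 and the second Serpinb1a probe set. All 4 lay below WT for 0 of 16, against 12.5%.

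Loss of IRF4 on top of IRF8 was compared as IRF4/8 DKO against IRF8 KO. The median log2 difference of the 10 genes was 0.08, against -0.01 over all genes, and 6 of 10 were higher in IRF4/8 DKO. None of 16 probe sets passed the limma adjusted threshold (0.0% of all were called) and none had an unadjusted limma p under 0.05 (8.52% of all did, 4.82% higher). Arrays did not overlap for 3 of 16 probe sets that were higher in IRF4/8 DKO, those of Mpo, Ctsg and the second Serpinb1a (19.3% of all). They did not overlap for 1 that was lower, the bright Ctsc probe set (17.3% of all). Bright probe sets lay higher in IRF4/8 DKO as a whole, with a median log2 difference of 0.17 in the intensity band of Mpo and 0.12 in that of Ctsg. The lowest unadjusted limma p was 0.063, for the second Serpinb1a probe set. For the peroxidase and the serine proteases, the 95% intervals were -0.11 to 0.44 for Mpo, -0.35 to 0.32 for Elane, -0.37 to 0.57 for Prtn3 and -0.11 to 0.61 for Ctsg.

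**Figure D4:**
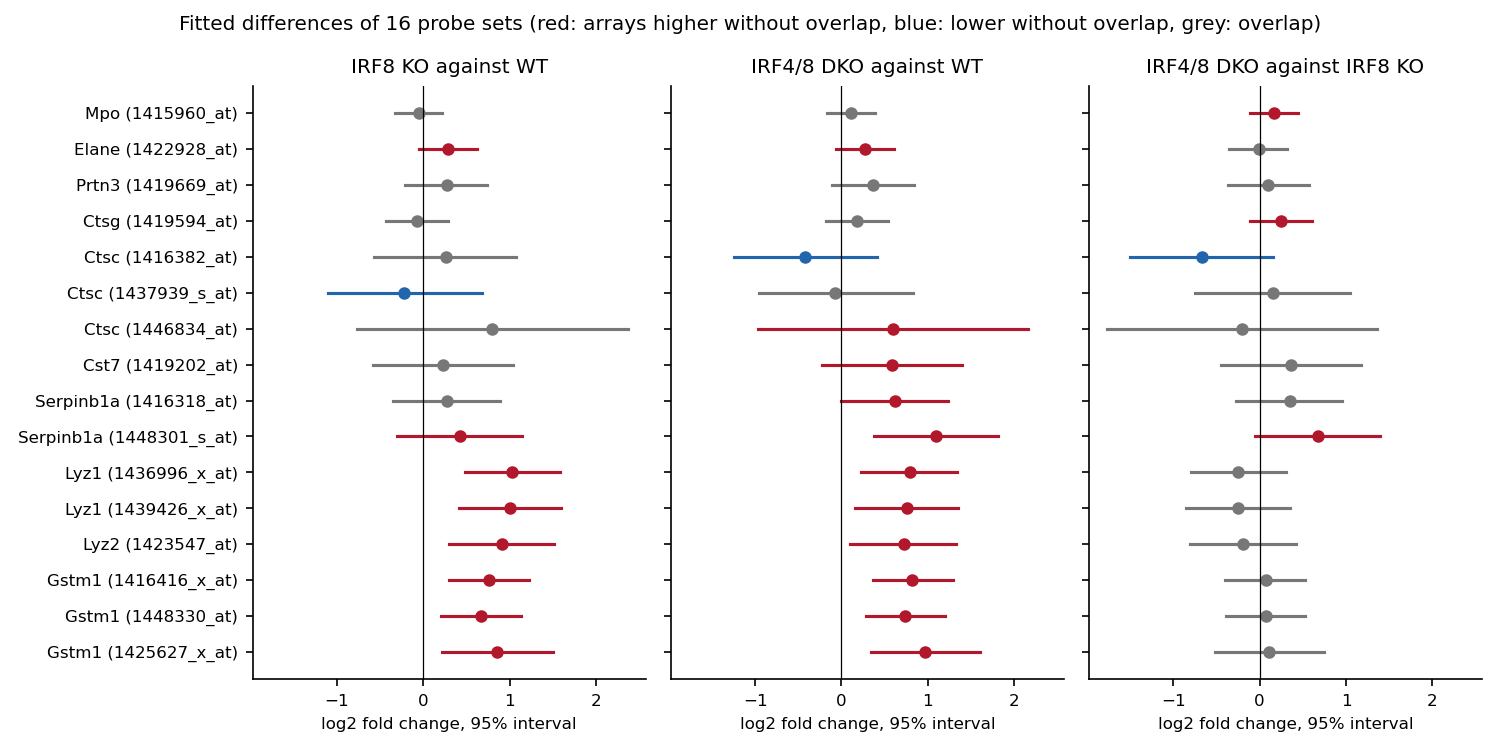
Fitted log2 fold change with its 95% interval for the 16 kept probe sets in the 3 comparisons; red and blue mark probe sets whose arrays do not overlap between the 2 genotypes. Intervals come from the main fit, in which the variance follows intensity. There the Lyz1, Lyz2 and Gstm1 intervals lie above 0 in both comparisons with WT, before adjustment, and all 16 intervals include 0 between the knockouts.

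Across the 6 arrays some of the 10 genes had closely alike patterns. Correlations are given as a description, over 6 arrays that share genotype, labelling and normalization. Mpo and Ctsg correlated at r = 0.987, the highest of all pairs. The part of shifts shared by bright probe sets in this likeness was not tested. Elane correlated with Lyz1 at 0.974 and with Lyz2 at 0.966, and Cst7 with Serpinb1a at 0.969. Elane and Prtn3, adjacent genes, correlated at 0.886. Mpo with Lyz1 gave 0.209 and Mpo with Gstm1 0.148, and Ctsc stood apart from the other 9 genes, with values from -0.314 to 0.199. The 5 other genes whose pattern was most like the mean pattern of the 10 were Kbtbd3 (r = 0.989), Itfg1 (0.986), Pi4kb (0.986), Nkg7 (0.985) and Pnp (0.984). They were picked for that likeness out of all genes. Their shared order, with WT replicate 1 lowest and IRF4/8 DKO replicate 2 highest, follows from the choice. Nkg7 read 706 and 1023 (WT), 1200 and 1710 (IRF8 KO), and 1181 and 2023 (IRF4/8 DKO).

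**Figure D5:**
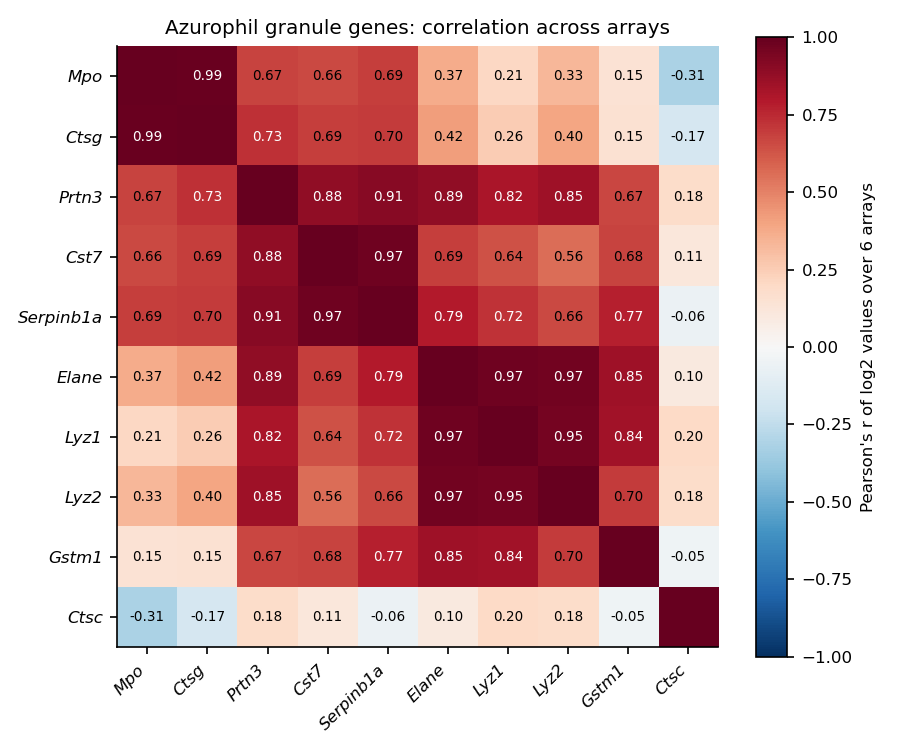
Pearson's r of log2 values over the 6 arrays for each pair of the 10 genes, 1 probe set each. Mpo and Ctsg form 1 block, Elane, Lyz1 and Lyz2 another, Cst7 and Serpinb1a the last pair, and the Ctsc row stays between -0.31 and 0.20.

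Within each genotype the median of the 10 genes was higher on replicate 2 than on replicate 1, although these numbers give no pairing. Set against the WT mean, the median of the 10 genes was -0.16 and 0.16 on WT replicates 1 and 2, 0.10 and 0.54 on the IRF8 KO arrays, and 0.24 and 0.67 on the IRF4/8 DKO arrays. The median over all genes lay between -0.02 and 0.04 on every array. Summed intensity of 11 secondary granule and later neutrophil genes ran the same way within each genotype: 13407 and 33833 for WT, 34160 and 59728 for IRF8 KO, and 29256 and 57135 for IRF4/8 DKO. Of these 11 genes, 10 lay above WT in IRF8 KO (53.1% of all genes did). By the limma adjusted threshold, 0 of the 11 passed there (0.0302% of all kept probe sets did). At an unadjusted limma p under 0.05, 3 were higher and 1 lower there (13.5% of all kept probe sets passed, 4.93% higher). In IRF4/8 DKO, 10 of the 11 lay above WT (52.5% of all genes did), with a median log2 fold change of 0.77. Only Mmp8, a collagenase of neutrophils, was called higher (limma adjusted p = 0.0416), as were 0.0907% of all kept probe sets. The part of later neutrophils in the granule gene values was not tested.

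Markers of other cells also moved with genotype. The 8 monocyte and macrophage genes kept summed to 10474 to 10721 in WT, 18322 to 20282 in IRF8 KO and 21270 to 27103 in IRF4/8 DKO, which matters for lysozyme because these cells make it. By limma, 0 of these 8 were called higher in IRF8 KO and 1, Ly86, was called lower. At an unadjusted limma p under 0.05, 5 were higher there (4.93% of all kept probe sets were). Ccr2, Adgre1, Mpeg1 and Cd14 were called higher and Ly86 lower in IRF4/8 DKO. Of all kept probe sets, 0.0302% were called in IRF8 KO (0.0101% higher) and 0.299% in IRF4/8 DKO (0.0907% higher). These shares hold for the calls of every list below. The 7 mast cell and basophil genes kept summed to 5565 to 8028 in WT, 2397 to 2447 in IRF8 KO and 1566 to 1779 in IRF4/8 DKO, where 3 of them were called lower. Lists for eosinophils (3 genes), erythroid cells (6), megakaryocytes (4) and stem cells (6) had negative median log2 fold changes in both knockouts, from -1.43 to -4.11. Of these lists, the stem cell gene Tek was called lower in both knockouts, and 1 eosinophil and 1 megakaryocyte gene in IRF4/8 DKO. For WT, IRF8 KO and IRF4/8 DKO in turn, summed levels were 4090 to 6646, 1026 to 3201 and 111 to 150 for eosinophil genes, and 6766 to 8363, 4004 to 4136 and 4425 to 6177 for erythroid genes. They were 820.0 to 3216, 471 to 972 and 80.7 to 114 for megakaryocyte genes, and 1998 to 4202, 273 to 441 and 182 to 432 for stem cell genes. A sum follows the brightest genes of its list. On the IRF4/8 DKO arrays Car2 read 142.5 and 56.1, and Epor, Car1 and Gata1 less, so Klf1 and Tfrc made up most of the erythroid sum. The erythroid median log2 difference between the knockouts was -0.25, although the sum was higher in IRF4/8 DKO. The B and T cell list kept 4 genes, all of the B lineage (Vpreb1, Cd79a, Ebf1 and Cd79b), and no T cell gene. They summed to 609 to 614 in WT, 1264 to 1716 in IRF8 KO and 1060 to 1738 in IRF4/8 DKO, with median log2 fold changes of 0.35 and 0.16. Vpreb1 made up most of the difference, at 187 and 185 in WT against 771 and 1275 in IRF8 KO (limma adjusted p = 0.0985), and Cd79a gave log2 -0.53 and -0.14 (limma adjusted p = 0.601 and 0.954). No gene of these lists was at 0, since the lowest value of the table is 0.69. The part of these cells in the granule gene values was not tested.

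Genes that serve the same granules or are related to Gstm1 were examined as 6 lists with 59 kept genes in all. By limma, 0 of the 59 passed the adjusted threshold in any comparison. Of all kept probe sets, 0.0302% passed it in IRF8 KO, 0.299% in IRF4/8 DKO and 0.0% between the knockouts. At an unadjusted limma p under 0.05, 10 of the 59 were higher and 4 lower in IRF8 KO. There 13.5% of all kept probe sets passed and 4.93% were higher. In IRF4/8 DKO 11 were higher and 5 lower (9.05% of all, 3.44% higher), and between the knockouts 1 was higher and 1 lower (8.52% of all). Other granule contents and membrane proteins (9 kept of 14 listed) had a median log2 fold change of 0.15 in IRF8 KO and 0.42 in IRF4/8 DKO. Epx, the peroxidase of eosinophil granules, which is also on the eosinophil list, had the lowest p of the list and lay below WT without overlap. It read 697 and 363 on the WT arrays, 139 and 7.74 on those of IRF8 KO, and 1.7 and 62.4 on those of IRF4/8 DKO (log2 -3.30 ± 1.05 and -4.11 ± 1.05 SE, limma adjusted p = 0.237 and 0.213). The lysosomal mannosidase gene Man2b1 read 1712 and 1553 on the WT arrays, 2342 and 2185 on those of IRF8 KO, and 2423 and 3810 on those of IRF4/8 DKO. The lysosomal enzyme genes Naglu (log2 0.81 and 1.49) and Arsb (log2 0.34 and 0.65) were not called either (limma adjusted p from 0.584 to 0.713). Genes for packaging, processing and trafficking (13 of 13) had medians of 0.22 and 0.35. Among them Lyst, whose loss causes giant granules, read 493 and 527 (WT), 1832 and 2887 (IRF8 KO), and 1276 and 2431 (IRF4/8 DKO). It lay without overlap above WT in both (log2 2.15 ± 0.40 SE, limma adjusted p = 0.0988, and 1.77 ± 0.40 SE, limma adjusted p = 0.157). Slpi, an inhibitor of elastase and cathepsin G, read 840 and 1114 for WT, 1821 and 3509 for IRF8 KO, and 2103 and 6002 for IRF4/8 DKO (log2 1.38 ± 0.50 and 1.87 ± 0.50 SE, limma adjusted p = 0.293 and 0.245). Grn gave log2 0.30 and 0.52, and the cathepsin gene Ctsb 0.34 and 0.72 (limma adjusted p from 0.403 to 0.642).

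Protease inhibitors (8 kept of 12) had medians of -0.03 in IRF8 KO and 0.20 in IRF4/8 DKO, with 4 of 8 genes above WT in each. Cstb, which codes for the cathepsin inhibitor cystatin B, read 2596 and 2457 on the WT arrays, 4189 and 5470 on those of IRF8 KO, and 3849 and 5264 on those of IRF4/8 DKO, with no overlap with WT (limma adjusted p = 0.176 and 0.308). Timp2, an inhibitor of metalloproteinases, gave log2 -0.52 and -1.27, and Itih5 -0.35 and -0.76 (limma adjusted p from 0.511 to 0.765). Genes for the synthesis of heme, the cofactor of myeloperoxidase (7 kept of 8), had medians of 0.59 and 0.26. Alas1, the rate-limiting enzyme in most cells outside the erythroid line, read 2169 and 3161 (WT), 3560 and 4757 (IRF8 KO), and 3964 and 6928 (IRF4/8 DKO) (log2 0.65 ± 0.32 and 1.0 ± 0.32 SE, limma adjusted p = 0.419 and 0.358). Among later enzymes of the pathway, Urod gave log2 0.90 and 0.55, Uros 0.85 and -0.35, and Alad -0.74 and 0.18 (limma adjusted p from 0.383 to 0.949). Other glutathione transferases (12 kept of 13) had medians of 0.42 and 0.49. The microsomal Mgst1 read 833 and 828 for WT, 2344 and 2444 for IRF8 KO, and 2733 and 2288 for IRF4/8 DKO, close within each genotype (log2 1.51 ± 0.28 and 1.58 ± 0.28 SE, limma adjusted p = 0.0988 and 0.0762). All 4 knockout arrays lay above both WT arrays, as they did for Mgst2 (log2 1.86 in both, limma adjusted p = 0.158 and 0.2). Gstm5, of the same class as Gstm1, lay the other way: it read 122 and 97.7 (WT), 17.8 and 55.5 (IRF8 KO), and 48.0 and 19.6 (IRF4/8 DKO), below WT on all 4 knockout arrays (log2 -1.47 and -1.51, limma adjusted p = 0.287 and 0.407). Gstm3 gave log2 1.18 and 0.66 (limma adjusted p = 0.26 and 0.713). Of the 12, 7 lay above and 2 below WT without overlap in IRF8 KO (19.8% and 25.9% of all kept probe sets). In IRF4/8 DKO, 6 lay above and 4 below (18.3% and 25.3% of all).

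Transcription factors known for granule genes (11 kept of 12) had medians of 0.33 and 0.15 and went both ways. Cebpd read 582 and 410 on the WT arrays, 1447 and 3530 on those of IRF8 KO, and 1118 and 3251 on those of IRF4/8 DKO (log2 2.19 ± 0.57 and 1.94 ± 0.57 SE, limma adjusted p = 0.173 and 0.305). Cebpb, which drives granulocyte production under stress, read 1798 and 2343 (WT), 3455 and 4346 (IRF8 KO), and 3948 and 3273 (IRF4/8 DKO) (limma adjusted p = 0.195 and 0.358). Both lay above WT on all 4 knockout arrays. Hoxa9, a factor of immature progenitors, read 1842 and 1566 for WT, 466 and 430 for IRF8 KO, and 615 and 109 for IRF4/8 DKO, below WT on all 4 (log2 -1.90 ± 0.68 and -2.64 ± 0.68 SE, limma adjusted p = 0.281 and 0.215). Egr1 gave log2 -1.66 and -1.43 (limma adjusted p = 0.31 and 0.551).

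Neighbours in the genome did not all follow the granule genes. Ctsg lies between Mcpt8, a basophil protease gene, and Gzme on chromosome 14. Mcpt8 read 1291 and 965 on the WT arrays, 260 and 322 on those of IRF8 KO, and 231 and 374 on those of IRF4/8 DKO, below WT without overlap, where Ctsg overlapped WT (limma adjusted p = 0.126 and 0.154 for Mcpt8). Mpo lies between Tspoap1 and Lpo on chromosome 11. Tspoap1 read 203 and 264 (WT), 848 and 3542 (IRF8 KO), and 1127 and 2654 (IRF4/8 DKO), above WT without overlap (log2 2.85 in both, limma adjusted p = 0.138 and 0.164), while Lpo, another peroxidase gene, read 40.8 to 119 on all arrays and overlapped WT. Plppr3, next to Prtn3, read 430 and 393 for WT, 870 and 619 for IRF8 KO, and 473 and 1465 for IRF4/8 DKO (limma adjusted p = 0.55 and 0.66).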

How the data were processed

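RNA of sorted GMPs was measured on 6 Affymetrix Mouse Genome 430 2.0 arrays, 2 per genotype. The authors deposited intensities on a linear scale, normalized and summarised from perfect-match and mismatch probes with dChip 1.3, as the design text of the series states. The sources used here do not give the normalization method or the handling of low values. Values of 45037 probe sets were taken as log2(intensity + 10.5), 10.5 being the 25th percentile of all values. This pseudocount makes changes of low genes look smaller. The filter asked for a value over an array's 40th percentile on 2 or more of 6 arrays, which kept 29783 probe sets.

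Symbols came from GEO's platform annotation, updated by gene identifier against RefSeq (GRCm38.p6), which also gave promoter windows and gene order. Of the probe sets, 34945 had 1 symbol, 932 several and 9160 none in the table used, and only those with 1 were named. Among the kept probe sets of a gene, the one of highest mean log2 value stands for it.

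One linear model over all 3 genotypes was fitted in R 4.3.3 by limma 3.58.1 (empirical Bayes with a variance trend, no covariates, 3 residual and 5.84 prior degrees of freedom), and p-values were adjusted by Benjamini-Hochberg over all kept probe sets. The p-values set a difference against the spread between the 2 samples of a genotype, which differ in sex and, in WT and IRF8 KO, in age. That spread is pooled over the 3 genotypes and drawn towards the trend over all probe sets. Depth has no meaning for arrays. The code was tested on simulated data. Tables were handled with Python 3.11.15.

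The members, gene lists, motifs and tests were chosen with earlier results of these data known. Named were all probe sets of the 10 genes, up to 4 genes per list of related genes with the lowest unadjusted p against WT and any past the threshold, and the 5 genes most correlated with the mean pattern. The neighbouring and gate genes, Irf8, Irf4, Serpinb1b, Gstm2 and Gstm4 were added for context, without regard to that rule. The replicate numbers give no pairing: the labels name no shared litter or day. Alternatives were leaving out each array, quantile normalization, median centring, 2 other pseudocounts, a filter at the 60th percentile or none, a fit without the trend, a fit of 2 genotypes only, and sex, age or replicate number as a term.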

Additional observations from a re-analysis of the deposited data

Results flagged for a closer look

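Each genotype had 1 male and 1 female array, so a difference can be read once within each sex. With 1 array per sex and genotype, and ages that differ too, none of these differences between the sexes was tested. For IRF4/8 DKO against WT, 0 of the 10 genes had opposite signs in the sexes, where 38.5% of all kept probe sets did.

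For IRF8 KO against WT, 6 of 10 genes had opposite signs, against 41.8% of all kept probe sets. The log2 difference of the males was above 0 and that of the females below 0 in each. It was 0.03 in males and -0.14 in females for Mpo, 0.58 and -0.05 for Prtn3, and 0.12 and -0.26 for Ctsg. It was 0.87 and -0.36 for Ctsc, 0.84 and -0.39 for Cst7, and 0.65 and -0.1 for Serpinb1a. The other 4 genes had the same sign: Lyz1 had 1.27 in males and 0.79 in females, Lyz2 1.15 and 0.67, Gstm1 0.80 and 0.55, and Elane 0.37 and 0.20. In this comparison and in that of IRF4/8 DKO with WT, Lyz1, Lyz2, Gstm1 and Elane were above WT in both sexes. This adds nothing to the array values, since every knockout array of these genes lay above both WT arrays.

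For IRF4/8 DKO against IRF8 KO, 7 of 10 genes had opposite signs, against 51.2% of all kept probe sets, now with the males below 0 and the females above. The log2 difference was -0.11 in males and 0.08 in females for Elane, -0.16 and 0.36 for Prtn3, and -0.36 and 1.08 for Cst7. It was -0.13 and 0.82 for Serpinb1a, -0.67 and 0.18 for Lyz1, -0.4 and 0.02 for Lyz2, and -0.24 and 0.37 for Gstm1. Both of these comparisons share the same 2 IRF8 KO arrays. Ctsc was below 0 in both sexes (-0.99 and -0.35).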

How the results depend on the processing

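With 2 arrays per genotype, 1 array can turn most differences between the knockouts. Of 510 member values under alternatives, 490 kept their sign and side of the threshold, 19 turned sign and 1 passed the threshold. Several alternatives cannot move a log2 value, so part of this count was fixed in advance. These are the changes of filter, the fit without the trend, the fit of 2 genotypes only, and the sex and replicate terms. Leaving out an array of the genotype not compared cannot move a log2 value either. Quantile normalization gave 0.0017 for Mpo and 0.04 for Ctsg in IRF8 KO, and -0.03 for Gstm1 between the knockouts. Median centring gave 0.09 for Mpo and 0.07 for Ctsg in IRF8 KO, and 0.07 for Elane between the knockouts, while moving the median of all genes from 0.04 to 0.18 in IRF8 KO and from 0.03 to 0.25 in IRF4/8 DKO. Leaving out 1 array at a time, the log2 fold change in IRF8 KO ran from -0.14 to 0.03 for Mpo, -0.25 to 0.11 for Ctsg, -0.06 to 0.57 for Ctsc and -0.17 to 0.63 for Cst7. Between the knockouts it ran from -0.09 to 0.07 for Elane, -0.06 to 0.26 for Prtn3, -0.04 to 0.76 for Cst7, -0.58 to 0.09 for Lyz1, -0.47 to 0.09 for Lyz2 and -0.16 to 0.29 for Gstm1. With a replicate block, which pairs arrays by number only, 1 member probe set passed in IRF8 KO (Lyz1, limma adjusted p = 0.0417; range over alternatives 0.0417 to 0.662), where whole-table calls went from 9 to 209. Deviations of same-numbered arrays correlated at 0.0411 to 0.211. Without IRF8 KO replicate 1, 1 member probe set passed, so the count ran from 0 to 1 when arrays were left out. It is the dim Ctsc probe set on which the remaining IRF8 KO array stands apart, that lone array is assumed to vary like the other groups, and 1090 of all probe sets passed in that fit. The other alternatives gave 0 in each comparison. The whole-table counts, which are the background shares, are themselves unsteady. With all arrays in, alternatives moved them from 9 to between 2 and 209 in IRF8 KO, from 89 to between 0 and 476 in IRF4/8 DKO, and from 0 to at most 2 between the knockouts. For IRF8 KO, leaving out a WT array gave 0, leaving out IRF8 KO replicate 1 or 2 gave 1090 and 193, and leaving out an IRF4/8 DKO array gave 2. For IRF4/8 DKO it was 0 without any 1 WT or IRF4/8 DKO array, and 469 and 484 without IRF8 KO replicate 1 or 2. Between the knockouts it was 200 and 14 without IRF8 KO replicate 1 or 2, and 0 without any other array. Lyz1, Lyz2, Gstm1, Elane, Prtn3 and Serpinb1a kept a positive log2 fold change against WT in both knockouts under every alternative run. In IRF8 KO the lowest value was 0.05 for Prtn3 and 0.04 for Serpinb1a. For Lyz1, Lyz2, Gstm1 and Elane, leaving out an array could not turn the sign, since every knockout array lay above both WT arrays.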
